A study of Mus musculus with 6 samples.

Results

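The matrix metalloproteases (Mmp genes), the ADAM and ADAMTS proteases and their TIMP inhibitors were examined as all genes whose symbol on the array begins with Mmp, Adam or Adamts followed by a number (Adamtsl for the ADAMTS-like genes), together with Timp1 to Timp4. By this rule 103 of 25697 probes belonged to 69 of 16590 named genes, of which 20 were Mmp genes, 29 Adam genes, 14 Adamts genes, 2 Adamts-like genes and 4 Timp genes. Their RNA was measured on 6 Illumina bead arrays of mouse cells, 2 arrays for each of 3 groups. The first group was piPSC, pluripotent stem cells induced with recombinant proteins. The second was ES, embryonic stem cells of the R1 line, and both are labelled with the same culture on irradiated embryonic fibroblast feeders with serum and 1000 units/ml of LIF, a cytokine that maintains pluripotency. That protocol is worded for ES cells, so the feeders of the piPSC cultures are known only as far as it applies to them. The third was OG2-MEF, embryonic fibroblasts from E13.5 embryos of mice with a GFP transgene under the Oct4 promoter, grown without feeders on gelatin with serum. The arrays of a group are labelled biological replicates, with separate cultures not stated, so the p-values cover only the spread between these samples, which may be technical.

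These enzymes work outside the cell or at its surface. MMPs cleave collagens, proteoglycans and other matrix proteins, most are made as inactive proforms, and the membrane-anchored members activate other MMPs. ADAMs are membrane proteins that release the outer parts of growth factors, receptors and adhesion proteins, ADAMTS proteases are secreted and cut matrix proteoglycans and procollagens, and TIMPs bind the active site of these enzymes and block it. Fibroblasts are a main source of such proteases and inhibitors in connective tissue.

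Signals are given on the log2 scale after background correction and quantile normalization, for 1 probe per gene, and the level of one probe cannot be set against that of another. Signals summed over a list are therefore compared between arrays only, and the probes with the brightest signal weigh most in them. Between 46.87% and 52.41% of probes were above background per array, and 38 to 40 of the 103 member probes were. The lowest share was that of ES replicate 2, which stood apart: it lay more than 2-fold below ES replicate 1 for 447 of 9900 genes tested and above it for 25, although none of the tested protease and inhibitor genes differed that much between arrays of a group on the probe used. For the protease and inhibitor genes, results with ES are therefore also given without it where that changes a call. Some genes of the related lists also changed call without it, and these are not given one by one. The labels held against marker genes: 10 of 10 pluripotent cell markers were higher in piPSC and in ES than in OG2-MEF, and 9 of 9 tested fibroblast markers were lower in both. Fibroblast markers were not absent from the stem cell arrays. All 9 were detected on both arrays of every group. The signal summed over the 10 fibroblast markers on the array was, as log2, 13.06 and 12.88 in piPSC, 12.87 and 12.66 in ES, and 15.32 and 15.15 in OG2-MEF, while Postn was at background in all groups.

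Of the 69 genes, 32 had a probe above background on both arrays of some group and were tested. In piPSC most of the called members were lower than in OG2-MEF: 16 fell, including all 3 tested TIMPs, the membrane protease Mmp14 and the gelatinase Mmp2, and 1 rose, the stromelysin Mmp3. A call needed an adjusted p under 0.05 together with a difference of 2-fold or more. The 17 changed genes were 53.1% of the members tested, beside 41.7% of all 9900 genes. Higher calls made up 3.12% of the members and 20.2% of all genes, and lower calls made up 50% of the members and 21.5% of all genes. The members had a median log2 difference of -0.86 and all genes one of 0.02. These shares describe the list. They are not a test of it, since 4 of the 32 genes (Adam20, Adamts15 and Mmp19 through ES, and Mmp16 through OG2-MEF) were tested only because 1 group was bright enough.

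ES cells were set against the same OG2-MEF arrays, so both comparisons share their control samples. In ES, 15 members fell and 2 rose (Mmp3 and Adam20), which made 17 changed genes or 53.1% of those tested, beside 46.8% of all genes. Higher calls were 6.25% of the members and 25.2% of all genes, and lower calls were 46.9% of the members and 21.6% of all genes. The median log2 difference was -0.87 over the members and 0.15 over all genes. These shares are no test either, since Adam20 was tested only through ES and Mmp16 only through OG2-MEF. Lower calls reached -4.06 in piPSC and -4.50 in ES, both for Adam12, which was not above background on ES replicate 2. In every lower call the stem cell arrays did not overlap the OG2-MEF arrays. With 2 arrays per group this follows largely from the call itself and adds no separate support. Summed fibroblast marker signal moved the same way as the lower calls, and its part in them was not tested. In RNA from whole cultures, fewer cells of a type and less RNA per cell cannot be told apart.

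**Figure D1:**
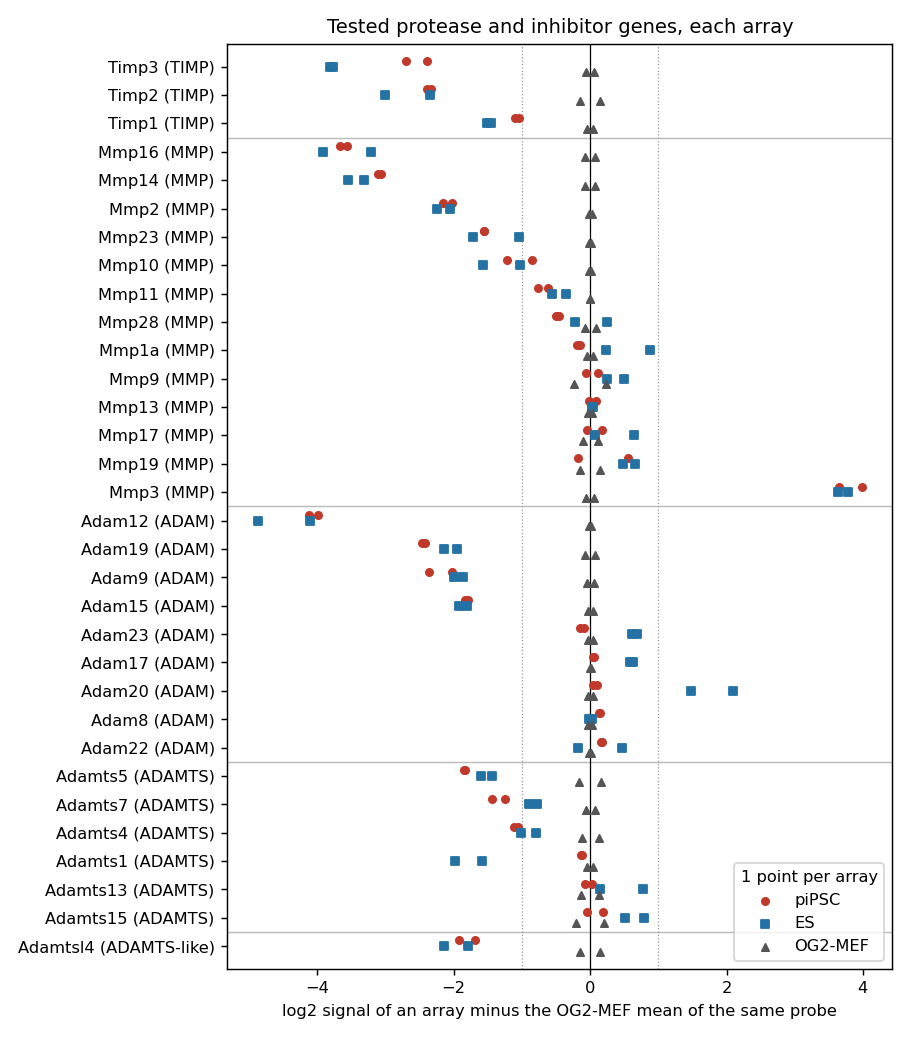
Log2 signal of each tested gene on each array minus the OG2-MEF mean of the same probe (x axis), with genes grouped by family down the page, 1 point per array and dotted lines at 2-fold. Points of piPSC and ES lie left of the OG2-MEF points for all 3 tested TIMPs and far right of them for Mmp3.

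All 3 TIMPs that were detected fell in both kinds of stem cells. Timp1, a soluble inhibitor of most MMPs, read 13.54 and 13.48 in piPSC, 13.07 and 13.13 in ES, and 14.63 and 14.54 in OG2-MEF. The groups did not overlap, and the difference from OG2-MEF was -1.08 in piPSC (SE 0.12, adjusted p = 3e-04) and -1.48 in ES (SE 0.12, adjusted p = 6.6e-05). Timp2, which inhibits MMPs and also takes part in the activation of pro-MMP2 by MMP14, read 12.00 and 11.95 in piPSC, 11.99 and 11.34 in ES, and 14.48 and 14.19 in OG2-MEF. This was 5.15-fold lower in piPSC (log2 -2.36, SE 0.23, adjusted p = 0.00016) and 6.38-fold lower in ES (log2 -2.67, SE 0.23, adjusted p = 8.5e-05).

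Timp3, the TIMP that binds to the matrix and also inhibits ADAM17 and aggrecan-cleaving ADAMTS proteases, separated all 3 groups. It read 11.53 and 11.22 in piPSC, 10.10 and 10.16 in ES, and 13.98 and 13.87 in OG2-MEF. It was 5.85-fold lower in piPSC than in OG2-MEF (log2 -2.55, SE 0.15, adjusted p = 1.9e-05) and 13.9-fold lower in ES. A separate probe for the gene placed the groups in the same order, at 7.75 and 7.30 in piPSC, 6.50 and 6.56 in ES, and 10.56 and 10.55 in OG2-MEF. The other Timp1 probe likewise gave 13.29 and 13.28 in piPSC, 12.90 and 12.84 in ES, and 14.41 and 14.64 in OG2-MEF. Timp4 was not above background on any array.

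Among the Mmp genes, 13 of 20 were tested, and in each kind of stem cell 5 fell, 1 rose and 7 were not called. Of all genes 21.5% fell and 20.2% rose in piPSC, and 21.6% fell and 25.2% rose in ES. Mmp14 and Mmp16, both anchored in the membrane, had the largest falls of the family. Mmp14, the membrane collagenase that activates pro-MMP2, read 10.54 and 10.49 in piPSC, 10.05 and 10.29 in ES, and 13.54 and 13.67 in OG2-MEF. It was 8.51-fold lower in piPSC (log2 -3.09, SE 0.14, adjusted p = 7.5e-06) and 10.8-fold lower in ES (log2 -3.43, SE 0.14, adjusted p = 4.8e-06). Mmp16, a related membrane protease, read 5.06 and 4.96 in piPSC, 4.71 and 5.41 in ES, and 8.70 and 8.55 in OG2-MEF. It was above background on only 1 of 2 arrays in piPSC and in ES, so its differences of -3.61 (SE 0.23, adjusted p = 2.7e-05) and -3.57 (SE 0.23, adjusted p = 2.5e-05) rest on dim signals, and with a background offset of 50 they were -2.70 and -2.66.

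Mmp2, the gelatinase that cleaves denatured collagen and basement membrane collagen, stayed well above background in every group while falling in the stem cells. Its signal was 11.04 and 11.16 in piPSC, 11.13 and 10.95 in ES, and 13.21 and 13.17 in OG2-MEF. The difference was -2.09 in piPSC (SE 0.13, adjusted p = 2.5e-05) and -2.15 in ES (SE 0.13, adjusted p = 2e-05). Mmp14, Mmp2 and Timp2, whose proteins act together in the activation of pro-MMP2, were thus all lower in both stem cell groups. Mmp23, a membrane MMP with an unusual domain order, read 8.37 and 8.36 in piPSC, 8.20 and 8.88 in ES, and 9.91 and 9.93 in OG2-MEF. It fell by 1.56 in piPSC (SE 0.22, adjusted p = 0.00094) and fell by 1.38 in ES (SE 0.22, adjusted p = 0.0015).

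Mmp3 was the only Mmp gene called higher in piPSC or in ES. It encodes stromelysin-1, a secreted protease that cleaves proteoglycans and fibronectin and activates other pro-MMPs. It read 11.37 and 11.03 in piPSC, 11.16 and 11.02 in ES, and 7.44 and 7.32 in OG2-MEF. Every stem cell array lay above every OG2-MEF array, 14.1-fold in piPSC (log2 3.82, SE 0.16, adjusted p = 5.6e-06) and 13.1-fold in ES (log2 3.71, SE 0.16, adjusted p = 5.4e-06). Mmp3 was higher in the groups in which the fibroblast markers were lower, and which cells gave its signal was not tested.

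Mmp3 had another 2 probes, which gave the same direction in piPSC but differed from each other in ES. One gave 10.76 and 10.63 in piPSC, 10.22 and 9.94 in ES, and 6.79 and 6.68 in OG2-MEF. The other gave 9.95 and 9.67 in piPSC, 9.25 and 5.96 in ES, and 6.33 and 6.17 in OG2-MEF. On this probe ES replicate 2 lay below both OG2-MEF arrays, and the difference of ES from OG2-MEF was 1.35 with an adjusted p of 0.25 over all probes, against 3.56 for piPSC.

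**Figure D2:**
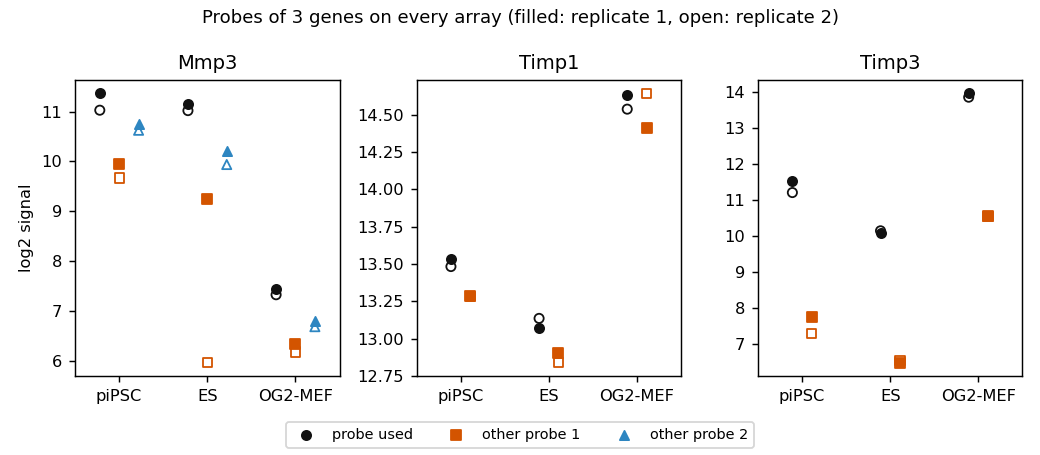
Log2 signal (y axis) of every detected probe for Mmp3, Timp1 and Timp3 in piPSC, ES and OG2-MEF, with replicate 1 filled and replicate 2 open; the black points are the probe used. All probes put Mmp3 higher and the TIMPs lower in piPSC than in OG2-MEF, and 1 Mmp3 probe read 5.96 in ES replicate 2.

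Mmp3 lies on chromosome 9 in a run of 10 Mmp genes, in the order Mmp13, Mmp12, Mmp1b, Mmp3, Mmp1a, Mmp10, Mmp8, Mmp27, Mmp20 and Mmp7. The array held 9 of them under the rule used here, and 4 were tested. The neighbours did not share the change. Mmp10, stromelysin-2 and the closest relative of Mmp3 in this run, read 5.83 and 6.19 in piPSC, 5.47 and 6.02 in ES, and 7.03 and 7.06 in OG2-MEF. It fell by 1.04 in piPSC (SE 0.22, adjusted p = 0.005) and fell by 1.30 in ES (SE 0.22, adjusted p = 0.0016), a call that rested on the processing: in the authors' normalized table the differences were -0.79 and -0.97, with an offset of 50 they were -0.75 and -0.92, and without piPSC replicate 1 that of piPSC was -0.87.

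Mmp13, a collagenase of cartilage and bone that lies at the start of the run, read 9.60 and 9.69 in piPSC, 9.64 and 9.65 in ES, and 9.58 and 9.64 in OG2-MEF. Its signals lay close together on all 6 arrays, and the difference from OG2-MEF was 0.04 in piPSC (SE 0.12, adjusted p = 0.81) and 0.03 in ES. A dimmer Mmp13 probe read 5.88 and 5.97 in piPSC, 5.02 and 4.69 in ES, where it was not above background, and 5.93 and 5.96 in OG2-MEF. The 2 probes therefore disagreed on ES. Mmp1a, an interstitial collagenase, had signals of 5.61 and 5.56 in piPSC, 5.99 and 6.63 in ES, and 5.71 and 5.80 in OG2-MEF, and was not called in either comparison. The remaining 5 on the array, Mmp12, Mmp1b, Mmp8, Mmp20 and Mmp7, were not above background anywhere.

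**Figure D3:**
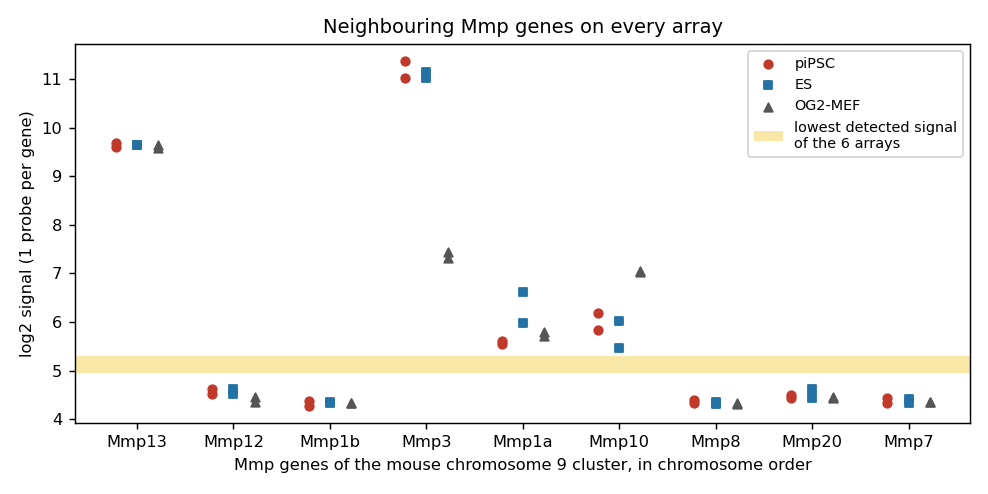
Log2 signal (y axis) of the Mmp genes of the chromosome 9 run in chromosome order (x axis), 1 point per array, with the band marking the lowest detected signals of the 6 arrays. Mmp3 is high in piPSC and ES, Mmp10 is higher in OG2-MEF, Mmp13 lies near one level in all groups and 5 genes lie under the band.

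The promoters of these 4 tested neighbours are shown because Mmp3, Mmp10, Mmp13 and Mmp1a gave different calls and their promoters carry the same pair of motifs. AP-1, the dimer of Fos and Jun proteins, is a known activator of several Mmp genes. Each line gives the 250 bases before the start of the gene from RefSeq (build GRCm38.p6), 5′ to 3′, with capitals for the AP-1 motif TGANTCA, which is its own reverse complement, and for the TATA motif TATAAA on the gene's strand within 40 bases of the start. The Mmp14 promoter, a member that fell and has neither motif, follows them.
Mmp13, chr9:7272264-7272513, plus strand: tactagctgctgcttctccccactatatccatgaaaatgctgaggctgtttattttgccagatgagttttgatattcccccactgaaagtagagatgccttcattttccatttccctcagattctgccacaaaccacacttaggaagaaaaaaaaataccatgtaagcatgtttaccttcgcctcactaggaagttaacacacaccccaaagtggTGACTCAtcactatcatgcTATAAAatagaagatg
Mmp3, chr9:7445572-7445821, plus strand: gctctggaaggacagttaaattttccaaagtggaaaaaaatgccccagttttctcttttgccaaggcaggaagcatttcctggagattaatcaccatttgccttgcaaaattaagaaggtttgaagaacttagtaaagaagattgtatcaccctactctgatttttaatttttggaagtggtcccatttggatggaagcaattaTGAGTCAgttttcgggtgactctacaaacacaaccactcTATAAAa
Mmp1a, chr9:7463891-7464140, plus strand: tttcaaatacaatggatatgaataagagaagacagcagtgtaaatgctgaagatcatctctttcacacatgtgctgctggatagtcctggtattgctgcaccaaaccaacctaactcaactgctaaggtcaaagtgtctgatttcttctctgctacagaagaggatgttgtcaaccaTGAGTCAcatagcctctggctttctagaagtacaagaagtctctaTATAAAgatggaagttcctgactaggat
Mmp10, chr9:7502092-7502341, plus strand: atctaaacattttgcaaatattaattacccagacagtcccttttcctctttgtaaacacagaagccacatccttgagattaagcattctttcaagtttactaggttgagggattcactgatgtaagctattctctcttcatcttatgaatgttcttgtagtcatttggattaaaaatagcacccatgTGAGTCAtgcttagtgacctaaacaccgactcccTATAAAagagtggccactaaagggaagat
Mmp14, chr14:54431348-54431597, plus strand: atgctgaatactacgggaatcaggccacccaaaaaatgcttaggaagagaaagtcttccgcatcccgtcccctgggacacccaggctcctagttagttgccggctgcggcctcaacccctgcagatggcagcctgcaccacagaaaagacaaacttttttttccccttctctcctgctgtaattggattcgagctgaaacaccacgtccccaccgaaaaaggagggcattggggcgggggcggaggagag

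Promoters of 42 of the 69 member genes were found by symbol in the RefSeq table. Within these windows the AP-1 letters were present for 8 of 9 Mmp genes of the chromosome 9 run and for 4 of the other 33 members, beside 6.75% of all 32851 promoters. All these counts leave the middle base free. The match read TGAATCA in Mmp20, Adam20 and Adam25, and TGAGTCA or TGACTCA in the other members with a match. A stricter pattern was not counted. The TATA motif stood in 2.31% of all promoters. Both motifs stood together in 5 of the 9 genes of the run, in 0 of the 33 other members and in 0.289% of all promoters. A member gene counted if any of its promoters held the motif, whereas the shares of all promoters count each promoter. The AP-1 letters began 46 bases before the start of Mmp3, 63 before Mmp10, 73 before Mmp1a and 35 before Mmp13. The TATA letters began 7 bases before the start of Mmp3, 29 before Mmp10, 28 before Mmp1a and 16 before Mmp13. All these distances depend on the annotated start, so they are not compared between genes. A motif match is a description of the sequence and not a bound site.

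The other tested Mmp genes were closer to even. Mmp11, stromelysin-3, read 7.83 and 7.99 in piPSC, 8.25 and 8.04 in ES, and 8.59 and 8.60 in OG2-MEF, a difference of -0.69 in piPSC that passed the adjusted p (0.004) but not the 2-fold threshold. Mmp9, the gelatinase of inflammatory and bone-resorbing cells, had signals of 6.55 and 6.72 in piPSC, 6.85 and 7.11 in ES, and 6.37 and 6.84 in OG2-MEF, which overlapped between piPSC and OG2-MEF. The membrane-linked Mmp17, and Mmp19 and Mmp28, both of which are secreted, were not called either. In all, genes that were not called lay between -0.69 and 0.19 in piPSC and between -0.90 and 0.65 in ES across the families.

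The ADAM genes split into a group that fell and a group that did not. Of 9 tested, 4 fell in piPSC and the same 4 fell in ES: Adam12, Adam19, Adam9 and Adam15, all of which encode active membrane proteases with a disintegrin domain. Lower calls made up 21.5% of all genes in piPSC and 21.6% in ES. Adam12, known from fusing muscle cells and mesenchyme, read 5.76 and 5.63 in piPSC, 5.64 and 4.87 in ES, and 9.77 and 9.73 in OG2-MEF. It was 16.7-fold lower in piPSC (log2 -4.06, SE 0.25, adjusted p = 2.1e-05) and 22.6-fold lower in ES (log2 -4.50, SE 0.25, adjusted p = 1.3e-05), where it was above background on 1 of 2 arrays, and with an offset of 50 the log2 differences were -3.38 and -3.62.

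Adam19, which takes part in heart development and neuregulin shedding, read 9.50 and 9.46 in piPSC, 9.78 and 9.97 in ES, and 11.84 and 12.00 in OG2-MEF. It was 5.43-fold lower in piPSC (log2 -2.44, SE 0.14, adjusted p = 1.5e-05) and 4.13-fold lower in ES. Adam9, a widely expressed sheddase, averaged 8.76 ± 0.24 in piPSC, 9.03 ± 0.10 in ES and 10.95 ± 0.07 in OG2-MEF (SD, n = 2 each). All stem cell arrays lay below both OG2-MEF arrays, by 4.58-fold in piPSC (adjusted p = 4e-05) and 3.81-fold in ES (adjusted p = 6.3e-05).

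Adam15, which carries an integrin-binding motif in its disintegrin domain, depended on the probe. The brighter probe read 8.91 and 8.96 in piPSC, 8.95 and 8.83 in ES, and 10.79 and 10.71 in OG2-MEF, a fall of 3.51-fold in piPSC (adjusted p = 3.4e-05) and 3.64-fold in ES (adjusted p = 2.7e-05). Its dimmer probe differed by -0.29 in both, with adjusted p values over all probes of 0.341 in piPSC and 0.316 in ES. The fall of Adam15 was thus measured by 1 probe of 2.

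Adam17, the main sheddase of TNF and of several EGF receptor ligands, was not called in either comparison. It read 8.77 and 8.74 in piPSC, 9.34 and 9.29 in ES, and 8.70 and 8.71 in OG2-MEF, with a difference of 0.05 in piPSC (adjusted p = 0.73) and one of 0.61 in ES that passed the adjusted p (0.0032) but stayed under 2-fold. Adam10, the other broad sheddase, was not above background on any array. Adam23, which lacks protease activity and is known as a cell adhesion protein of neurons, was likewise highest in ES, at 10.54 and 10.61 in piPSC, 11.31 and 11.38 in ES, and 10.66 and 10.73 in OG2-MEF. Its other 2 probes differed between ES and OG2-MEF by 1.18 (adjusted p over all probes 0.000463) and 0.31 (0.256). Adam20, known from human testis, was above background on the ES arrays alone, at 6.11 and 6.72 there, beside 4.72 and 4.67 in piPSC and 4.59 and 4.66 in OG2-MEF. In ES it was at least 2.64-fold higher than in OG2-MEF (adjusted p = 0.00031), where this fold is a lower bound set by the lowest detected signal of the dim arrays. Adam20 was tested only because the ES arrays were bright enough, so its p-values add no separate support. Adam8 and Adam22 were not called.

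Of the ADAMTS proteases, 6 of 14 were tested, and 3 fell in piPSC while 2 fell in ES. The lower share of all genes was 21.5% in piPSC and 21.6% in ES. Adamts5, a main aggrecan-cleaving protease of cartilage, read 6.87 and 6.86 in piPSC, 7.10 and 7.26 in ES, and 8.87 and 8.54 in OG2-MEF. It was 3.58-fold lower in piPSC (log2 -1.84, adjusted p = 8.2e-05) and 2.88-fold lower in ES (log2 -1.53, adjusted p = 0.00017). Adamts7, which cleaves cartilage oligomeric matrix protein, read 5.89 and 6.08 in piPSC, 6.43 and 6.55 in ES, and 7.40 and 7.26 in OG2-MEF. It was 2.54-fold lower in piPSC (log2 -1.35, SE 0.14, adjusted p = 0.00019), and its difference of -0.84 in ES (adjusted p = 0.0015) stayed under 2-fold.

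Adamts4, another aggrecan-cleaving protease, lay close to the threshold. Its signals were 6.82 and 6.88 in piPSC, 6.92 and 7.14 in ES, and 8.06 and 7.81 in OG2-MEF. The fall in piPSC was 2.12-fold (SE 0.15, adjusted p = 0.00079). It no longer reached 2-fold in the authors' normalized table (log2 -0.93), with an offset of 50 (-0.90) or without OG2-MEF replicate 1 (-0.95). In ES the difference was -0.90 (adjusted p = 0.0016), and it passed 2-fold without ES replicate 2 (-1.01) or without OG2-MEF replicate 2 (-1.02).

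Adamts1, which cleaves aggrecan and versican and is needed for ovulation in mice, fell in ES and not in piPSC. Adamts1 read 6.34 and 6.35 in piPSC, 4.89 and 4.48 in ES, and 6.51 and 6.42 in OG2-MEF. In ES, where it was not above background, it was at least 2.45-fold lower than in OG2-MEF (adjusted p = 0.00011), and in piPSC the difference was -0.12 (adjusted p = 0.54). Adamts13, which cleaves von Willebrand factor, and Adamts15 were not called. Adamtsl4, an ADAMTS-like protein without protease domain that binds fibrillin, read 7.65 and 7.43 in piPSC, 7.20 and 7.56 in ES, and 9.49 and 9.20 in OG2-MEF. It was 3.49-fold lower in piPSC (adjusted p = 0.00019) and 3.90-fold lower in ES (adjusted p = 0.00012).

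The remaining 37 genes were not tested. For 32 of them no probe was above background on any array. These were 17 Adam genes, among them Adam10, Adam28 and Adam33 and the germ cell genes Adam2 and Adam3, 7 Adamts genes (Adamts3, Adamts12 and Adamts16 to Adamts20), Adamtsl2, 6 Mmp genes and Timp4. The other 5, Adam26a, Adam32, Adam4, Adamts8 and Mmp24, were above background on some array but not on both arrays of any group. A signal at background on this array does not show that a gene was not expressed.

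Between piPSC and ES few members differed. Adamts1 and Timp3 were higher in piPSC and Adam20 was lower, which made 3 changed genes of 32 or 9.38%, beside 8.55% of all genes. Higher calls were 6.25% of the members and 4.11% of all genes, and lower calls were 3.12% of the members and 4.43% of all genes. The median difference was -0.18 for the members and also -0.18 for all genes. Adam20 was tested only through ES, the group in which it was bright, so these shares are again no test. Timp3 was 2.37-fold higher in piPSC than in ES (log2 1.25, SE 0.15, 95% interval 0.89 to 1.61, adjusted p = 0.0048), and its other probe gave 0.99. In piPSC Adamts1 exceeded its ES level at least 2.25-fold (adjusted p = 0.0029), and Adam20 was at least 2.71-fold lower (adjusted p = 0.0049).

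These 3 calls rested on few arrays. Without piPSC replicate 1 none was called, with adjusted p of 0.057 for Timp3, 0.05 for Adamts1 and 0.059 for Adam20, while the log2 differences were 1.09, 1.66 and -1.74. Without piPSC replicate 2 the adjusted p of Adam20 was 0.055, and with an offset of 50 Adam20 and Adamts1 (log2 0.95) both fell short of 2-fold. Without ES replicate 2 all 3 remained called. Smaller differences between piPSC and ES passed the adjusted p but not 2-fold for Adam17, Adam23, Adamts7 and Mmp1a. They were -0.56 (adjusted p = 0.02) for Adam17, -0.77 (adjusted p = 0.0096) for Adam23 and -0.51 (adjusted p = 0.039) for Adamts7. That of Mmp1a was -0.73, with an adjusted p that rounds to 0.05. Timp1 (0.41, adjusted p = 0.052) passed neither limit.

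For the other 29 members no 2-fold difference was called, with values between -0.77 and 0.44. A missed threshold does not show that levels were the same. The 95% interval lay within 2-fold in either direction for 24 of the 29, including Mmp3 (difference 0.11, interval -0.27 to 0.49), Mmp13 (0.00, -0.29 to 0.29) and Timp2 (0.31, -0.25 to 0.87). It reached beyond 2-fold for Adam12, Adam23, Adamts13, Adamts15 and Mmp1a. These intervals hold for the probe used only. The dimmer Mmp13 probe, not above background in ES, differed by 1.07 between piPSC and ES (adjusted p over all probes 0.00785). The other Mmp3 probes differed by 0.61 (adjusted p over all probes 0.0328) and 2.20 (0.134). Mmp1a, at -0.73, was called lower in piPSC (-1.06) when ES replicate 1 was left out.

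**Figure D4:**
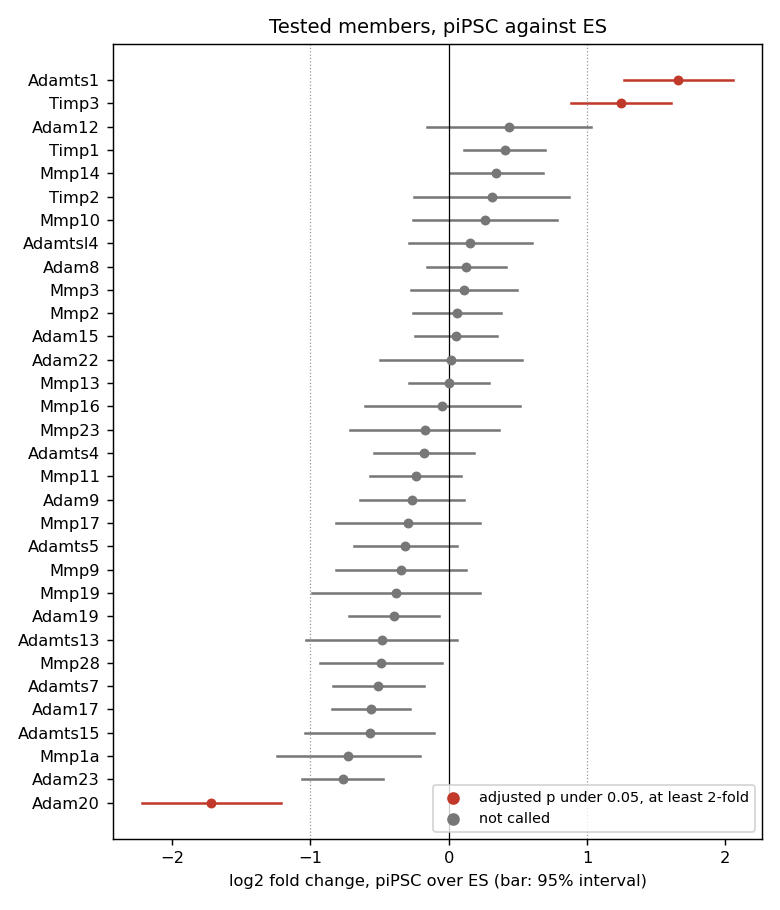
Log2 fold change of piPSC over ES for the 32 tested members (x axis), with bars for the 95% interval, dotted lines at 2-fold and red for called genes. Adamts1 and Timp3 lie to the right of the 2-fold line, Adam20 lies to the left of it, and most other intervals stay between the lines.

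Other genes of proteolysis around the cell were read from the same fit, in 7 lists that held 137 genes, 89 of them tested. In piPSC 12 rose and 46 fell, and in ES 11 rose and 48 fell. The lower calls were 51.7% of these genes in piPSC and 53.9% in ES, beside 21.5% and 21.6% of all genes. The higher calls were 12 of 89 in piPSC, beside 20.2% of all genes, and 12.4% in ES, beside 25.2%. Of the lists, the plasminogen activation genes had 4 of 6 lower in piPSC and 5 of 6 in ES, with none higher. Plau, the urokinase that turns plasminogen into plasmin, fell by 4.01 on the log2 scale in piPSC (adjusted p = 5e-06) and fell by 4.95 in ES (adjusted p = 2.2e-06), and Plaur, its receptor, fell by 3.20 in piPSC and fell by 3.11 in ES.

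Regulators of MMP activity were mostly lower. Of 8 tested, 6 fell and 1 rose in piPSC, and 7 fell and 1 rose in ES. Among all genes 21.5% fell and 20.2% rose in piPSC, and 21.6% fell and 25.2% rose in ES. Furin, the convertase that removes the propeptide of membrane MMPs and ADAMs, fell by 2.82 in piPSC and fell by 2.99 in ES, and Cd44, a hyaluronan receptor that holds MMPs at the cell surface, fell by 2.80 in piPSC and fell by 3.06 in ES. Lcn2, a secreted lipocalin that binds MMP9 in human neutrophils, was not above background in OG2-MEF and stood at least 115-fold above it in piPSC (adjusted p = 5.7e-07) and at least 54.3-fold above it in ES (adjusted p = 7.9e-07).

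Among partners of ADAM10 and ADAM17, 1 of 5 rose and 2 fell in piPSC and 1 fell in ES. For this list and the next, the shares of all genes were 20.2% higher and 21.5% lower in piPSC. In ES they were 25.2% higher and 21.6% lower. The 1 of 5 partners that rose in piPSC and the 1 of 5 that fell in ES lie near these shares. Rhbdf1, an inactive rhomboid that brings ADAM17 to the surface, fell by 2.78 in piPSC and fell by 3.14 in ES, while Adam17 itself was not called. Of 20 substrates that ADAMs release from the membrane, 12 fell and 1 rose in piPSC, and 13 fell and 1 rose in ES. Hbegf, an EGF receptor ligand released by ADAM17, fell by 3.24 in piPSC and fell by 3.56 in ES. Axl, a receptor kinase shed by ADAMs, fell by 3.29 in piPSC and fell by 3.91 in ES, and Efnb1, a membrane ephrin, fell by 3.36 in piPSC and fell by 3.75 in ES.

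ADAMTS substrates and partners, several of which are also fibroblast markers, had 8 of 13 lower and 1 higher in each kind of stem cell. Ltbp1, which anchors latent TGF-beta in the matrix, fell by 4.66 in piPSC and fell by 4.83 in ES. Of 24 other proteases and protease inhibitors around the cell, 9 fell and 5 rose in piPSC, and 10 fell and 4 rose in ES. The higher counts lie near or under the 20.2% of all genes in piPSC and the 25.2% in ES. The lower shares of all genes were 21.5% and 21.6%. Dpp4, a membrane dipeptidase, was at least 8.08-fold higher in piPSC and at least 10.2-fold higher in ES than in OG2-MEF. Spint1, an inhibitor of epithelial membrane serine proteases, was at least 8.48-fold higher in piPSC and at least 12.5-fold higher in ES, whereas the lysosomal protease Ctsh fell by 2.60 in piPSC and fell by 2.65 in ES.

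Transcription factors known to bind Mmp promoters were the last list. Of 13 AP-1, Ets and Runx genes tested, 3 rose and 5 fell in piPSC, and 4 rose and 4 fell in ES. Among all genes 20.2% rose and 21.5% fell in piPSC, and 25.2% rose and 21.6% fell in ES, so the higher counts of this short list lie near those of all genes. Fos, a subunit of AP-1, read 9.44 and 9.80 in piPSC, 11.30 and 11.46 in ES, and 7.38 and 7.46 in OG2-MEF. The groups did not overlap, with differences from OG2-MEF of 2.20 in piPSC (adjusted p = 4.5e-05) and 3.96 in ES (adjusted p = 4.7e-06), and a difference of piPSC from ES of -1.76 (adjusted p = 0.0023). Fosl1, another AP-1 subunit, fell by 2.53 in piPSC and fell by 2.20 in ES. Of the Jun genes, Junb and Jund were higher in piPSC with an adjusted p under 0.05 but stayed under 2-fold. In ES, Jun was lower with an adjusted p under 0.05 but stayed under 2-fold, and with median scaling it was called lower. The AP-1 genes thus did not all move one way, and their part in the Mmp values was not tested. Ets1 fell by 3.21 in piPSC and fell by 3.49 in ES, and Runx1 fell by 3.17 in piPSC and fell by 3.20 in ES, while Atf3 rose by 2.12 in piPSC and by 2.66 in ES. Between piPSC and ES, 9 of the 89 genes of these lists were called. The 7 higher in piPSC were 7.87% of these genes and the 2 lower were 2.25%, beside 4.11% and 4.43% of all genes, and without piPSC replicate 1 a single gene was called.

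Markers of other cell types were read beside these results. Macrophages are a known source of Mmp9 and Mmp12. Of their markers, Itgam, Ptprc, Tyrobp, Cd53 and C1qa were not above background on any array, and of 6 tested 1 (Laptm5) was higher and 3 were lower in each kind of stem cell. The signal summed over the 12 macrophage markers on the array was, as log2, 13.41 and 13.60 in piPSC, 13.31 and 13.21 in ES, and 10.59 and 10.68 in OG2-MEF. In the stem cells Laptm5 made up most of that sum, at 13.32 and 13.51 in piPSC, 13.22 and 13.09 in ES, and 8.08 and 8.28 in OG2-MEF. For endothelial markers, 3 of 6 were higher and 1 was lower in both. The endothelial sum differed little, at 10.31 and 10.46 in piPSC, 10.54 and 10.06 in ES, and 10.10 and 10.07 in OG2-MEF. For cartilage markers, 2 of 8 were higher and 2 lower in piPSC, and 3 higher and 2 lower in ES. Their summed signal, led in OG2-MEF by Col2a1, was 8.99 and 9.02 in piPSC, 9.14 and 9.41 in ES, and 13.76 and 13.57 in OG2-MEF. For endoderm markers, 2 of 6 were higher and 4 lower in both, with a summed signal of 11.38 and 11.41 in piPSC, 11.64 and 11.68 in ES, and 14.35 and 14.14 in OG2-MEF. That list also holds the matrix genes Lama1, Lamb1 and Col4a1, and 5 of its 11 genes were detected on no OG2-MEF array. Its sum does not identify a cell type. For osteoblast markers 1 of 3 was higher and 1 lower in both. Their sum was 10.56 and 10.56 in piPSC, 10.73 and 10.77 in ES, and 8.35 and 8.45 in OG2-MEF. The cartilage and endoderm sums moved the same way as the lower protease calls, and the osteoblast and macrophage sums moved the other way. The median cartilage difference was 0.08 in piPSC and -0.06 in ES, unlike its sum. Among all genes 20.2% rose and 21.5% fell in piPSC, and 25.2% rose and 21.6% fell in ES. The cartilage counts in piPSC lie near these shares. The part of these markers in the protease values was not tested.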

How the data were processed

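Per the file headers, the deposited table held unnormalized linear intensity values and, beside each, a detection p-value. The deposited matrix of the authors gave log2 values, which quantile normalization of the log2 intensities without background correction gave back within 0.0012. Its columns had a median of 5.89 and genes were not centred. Scanner software and any earlier background subtraction are not given in the sources used here. RNA input was 500 ng per the labels' protocols.

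Intensities were processed with neqc of limma 3.58.1 in R 4.3.3, which corrects background by normexp from the detection p-values, adds an offset (16 here), equalizes quantiles and returns log2 values. Probe symbols came from the array annotation, updated through Entrez identifiers to assembly GRCm38.p6: 23978 probes had 1 symbol, and 1719 without one were left out. No member symbol changed. Probes needed a detection p under 0.05 on both arrays of some group, and each gene took its probe with the highest mean, which left 9900 genes.

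One limma fit (lmFit and eBayes) of 3 group means left 3 residual degrees of freedom, with prior degrees of freedom of 3.4, with Benjamini-Hochberg adjustment over all genes per comparison. SE is the moderated standard error, n is 2 arrays per group, and so few arrays limit the precision. The spread is shared by the groups although the SD of the difference between the 2 arrays was 0.203 in piPSC, 0.557 in ES and 0.187 in OG2-MEF. "At least" folds set the brighter mean against a floor for each dim array, the lowest signal detected on it or that of the probe, whichever was larger. The steps were tested on simulated data.

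Members and lists were chosen with earlier results of these data known. Named genes were all Timp genes, every member changed in at least 1 comparison, and list genes changed by at least 4-fold against OG2-MEF, at most 6 per list, of which a part is printed. Fos is also given with its arrays, and uncalled members were named for contrast after their values were seen. Alternatives changed the source table, offset, scaling, filter, probe choice, prior, fold threshold, replicate block and arrays used.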

Additional observations from a re-analysis of the deposited data

How the results depend on the processing

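Under 15 alternatives, the counts of changed, higher and lower members and list genes in piPSC against OG2-MEF and in ES against OG2-MEF stayed within 1.5 times, except that 5 members were higher in ES without a fold threshold (2 with it), where Adam17, Adam23 and Adamts15 joined. Over single members, 96 differences under 14 alternatives gave 1329 recomputed values, since some members drop out under the stricter detection filter. Of 37 called ones, 6 lost their call at least once, and none reversed. In piPSC against ES, members changed numbered 1 with an offset of 50 (Timp3), with 1 higher and 0 lower, and 7 without a fold threshold, 5 of them lower. Leaving out 1 array at a time gave 0 to 4 changed, 0 to 2 higher and 0 to 2 lower, with 0 changed without piPSC replicate 1. The list genes in piPSC against ES numbered 30 changed, 17 higher and 13 lower without a fold threshold, and 4 were higher without the detection filter and also with an intensity trend and robust prior. With the authors' matrix, an offset of 50 or median scaling 1 was lower. Leaving out 1 array at a time gave 1 to 13 changed, 0 to 11 higher and 1 to 2 lower, with 1 and 4 changed when piPSC replicate 1 or 2 was omitted, 6 when ES replicate 2 was, and 5 when either OG2-MEF array was. Median scaling moved the median of all genes to -0.19 in piPSC against OG2-MEF and to -0.06 in ES against OG2-MEF, and under it Mmp11 in piPSC (-1.01), Adamts7 in ES (-1.29) and Adamts4 in ES (-1.37) were called lower. Causes of these moves were not tested beyond the change in setting itself.

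The labels state no pairing of replicate numbers. Deviations of same-numbered arrays correlated at 0.0604 for piPSC with OG2-MEF, 0.25 for ES with OG2-MEF and 0.00365 for piPSC with ES. With 2 arrays per group these values cannot show whether same-numbered arrays had more in common than the number. With the replicate number as a block, 17 members were changed in piPSC against OG2-MEF, 17 in ES against OG2-MEF and 3 in piPSC against ES, and 58, 59 and 9 list genes. The block changed none of these counts. Signals near background limit what can be said of Adam20, Adamts1, Mmp16 and Adam12, whose folds shrink with a larger offset.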
